A study of Mus musculus with 9 samples.

Results

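The genes described here are 9 genes of retinoid uptake, binding, metabolism and response, Stra6, Crabp1, Crabp2, Aldh1a1, Aldh1a2, Aldh1a3, Rdh10, Cyp26b1 and Rarb, among the 18484 genes counted in 9 mammary tumours of BlgCre-NeuKI mice. They were taken by symbol from a list of retinoid genes, and Stra6 was chosen by its difference between amplification groups, so its values across those groups are given as a description with no test. Each tumour was 1 RNA-seq library. In all of these mice an activated, rat-derived Neu oncogene sits in 1 copy of the endogenous Erbb2 locus behind a floxed STOP cassette. By design, the cassette is removed by Cre driven by the Blg promoter, which acts mainly in luminal cells of the mammary gland. Cre and NeuKI were both heterozygous on a mixed FVB/C57Bl6 background. The 5 tumours with high amplification of the Erbb2/Neu locus were all adenocarcinomas of no special type, AC(NST). Virgin mice gave 3 of them, MS1163.1, MS1213.1 and MS1163.2, and parous mice gave MS1155.3 and MS1218.2. The 3 epithelial tumours with no or low amplification all came from parous mice, MS1210.1 and MS1349.1 being metaplastic adenosquamous carcinomas (ASQC) and MS1166.1 an AC(NST). The last tumour, MS1156.1, was a mammary sarcoma of a parous mouse with no or low amplification. All not/low-amplified tumours came from parous mice and neither ASQC tumour was amplified, so parity and amplification overlap in part and were not separated in the amplification comparison. Parity was compared within the high-amplified tumours. The amplification groups follow the study's quantitative PCR calls, under which amplification and histotype differ in 1 epithelial tumour alone, MS1166.1. Per the paper, MS1218.2 scored low by droplet digital PCR and was not amplified by exome copy number. MS1213.1 also scored low by droplet digital PCR but was amplified by exome copy number. In MS1349.1, droplet digital PCR gave no evidence of cassette removal or locus amplification. The labels give MS1163.1 and MS1163.2 a shared mouse number.

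Retinol circulates bound to a carrier protein and enters many cells through the membrane receptor STRA6. Inside the cell, retinol is oxidised to retinal by retinol dehydrogenases such as RDH10, and retinal is oxidised irreversibly to retinoic acid by the ALDH1A enzymes. CRABP proteins carry retinoic acid in the cytoplasm, CYP26 enzymes break it down, and the rest acts in the nucleus through retinoic acid receptors paired with retinoid X receptors, which bind repeated half-sites in DNA. Rarb and Cyp26a1 are textbook targets of these receptors. In mammary and skin epithelium retinoic acid is known mainly for its effects on differentiation and keratinisation.

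The sequences shown first are the promoters of these receptor targets. Whether their levels reflect receptor activity in these tumours was not tested. Promoter windows of RefSeq (build GRCm38.p6; 250 bases before to 50 bases after the start) were found for 6 of the 9 genes, and for Crabp2, Aldh1a3 and Rdh10 none was at hand. Both strands were searched for pairs, in the same direction, of the receptor half-site, spelled AGGTCA in its consensus form, AGTTCA where only the third base differs, GGGTCA where only the first base differs and GGTTCA where both bases differ, with 1, 2 or 5 bases between them, called DR1, DR2 and DR5. A DR5 was found in 0.0974% of 32851 windows, a DR2 in 0.268% and a DR1 in 0.222%. Of the 9 genes, only Rarb had any of these matches; of the other retinoid genes listed for comparison, Cyp26a1 had a DR5 and Bco1 a DR1. The 250 bases before the start of each DR5 gene are written 5′ to 3′ on the gene's own strand, with the DR5 in capitals.
Rarb (minus strand, chr14:16575477-16575726): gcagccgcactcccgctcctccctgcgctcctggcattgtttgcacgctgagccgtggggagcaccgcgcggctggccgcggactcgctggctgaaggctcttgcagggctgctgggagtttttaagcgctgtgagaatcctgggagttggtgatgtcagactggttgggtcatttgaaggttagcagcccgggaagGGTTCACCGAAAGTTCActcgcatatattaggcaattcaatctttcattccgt
Cyp26a1 (plus strand, chr19:37697558-37697807): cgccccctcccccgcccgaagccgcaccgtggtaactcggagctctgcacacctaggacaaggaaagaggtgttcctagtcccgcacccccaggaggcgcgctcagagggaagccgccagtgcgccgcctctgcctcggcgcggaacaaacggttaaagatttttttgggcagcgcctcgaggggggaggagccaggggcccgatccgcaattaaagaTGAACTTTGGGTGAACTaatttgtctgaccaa
The Rarb match lies at chr14:16575513-16575529, 53 to 37 bases before a start that is inside the longer Rarb gene model. The Cyp26a1 match lies at chr19:37697776-37697792, 32 to 16 bases before the start, with its half-sites on the opposite strand. No match says only that these letters are not in the window, and a match is not a site shown to be bound.

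Reads counted on genes numbered 12501225 to 23912429 per tumour. Normalised counts are counts divided by 1 size factor per tumour, as deposited for the 8 epithelial tumours; values that include the sarcoma use factors over all 9 tumours, on which the epithelial values are 3.35% to 5.10% lower. On this second scale, Erbb2 had 5053 to 101159 normalised counts in the high-amplified tumours, 1474 to 2669 in the not/low-amplified epithelial tumours and 1135 in the sarcoma. The summed level of 8 luminal epithelial markers was 39298 to 147510 in the epithelial tumours and 472 in the sarcoma. MS1218.2 stood apart for stroma: its summed fibroblast markers were 365928 against 28685 to 113142 in the other epithelial tumours, its endothelial markers 15013 against 2629 to 6763, and its macrophage markers 82570 against 5244 to 22204. The study's methods name it as the only sample below their purity limit. Since these are bulk tissues, fewer cells of a type and less RNA per cell cannot be told apart.

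The first comparison, high-amplified against not/low-amplified tumours, is the study's main one. Of the genes that make retinoic acid, the retinol dehydrogenase gene Rdh10 and the retinal dehydrogenase gene Aldh1a3 were lower in high-amplified tumours and passed the test. These were 2 of the 8 genes other than Stra6 (adjusted p under 0.05 and log2 fold change beyond 1 in edgeR's quasi-likelihood test over 14007 genes), beside 0.485% of all genes called higher in not/low-amplified tumours and 0.435% called higher in high-amplified tumours. The remaining 6 did not pass, 5 with a negative and 1, Aldh1a2, with a positive log2 fold change. The median log2 fold change of the 8 genes was -2.35, against 0.02 over all genes tested. The genes were chosen with earlier results of these data known, so their median and their calls as a set are a description. The 45 other retinoid genes that passed the filter on low counts had a median of -0.16, with 0 called. All 9 genes passed the filter on low counts. DESeq2 called 5 of the 8 higher in not/low-amplified tumours (Crabp1, Aldh1a1, Aldh1a3, Rdh10 and Rarb), where it called 4.54% of 15192 genes in that direction. By histotype, ASQC against AC(NST), 1 of the 8, Aldh1a1, was called higher in ASQC, beside 0.221% of all genes called in that direction and 0.0143% in the other. The histotype comparison uses the same tumours as the first, and its high side is made of 2 of the 3 not/low-amplified tumours, so the comparisons are not independent.

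**Figure D1:**
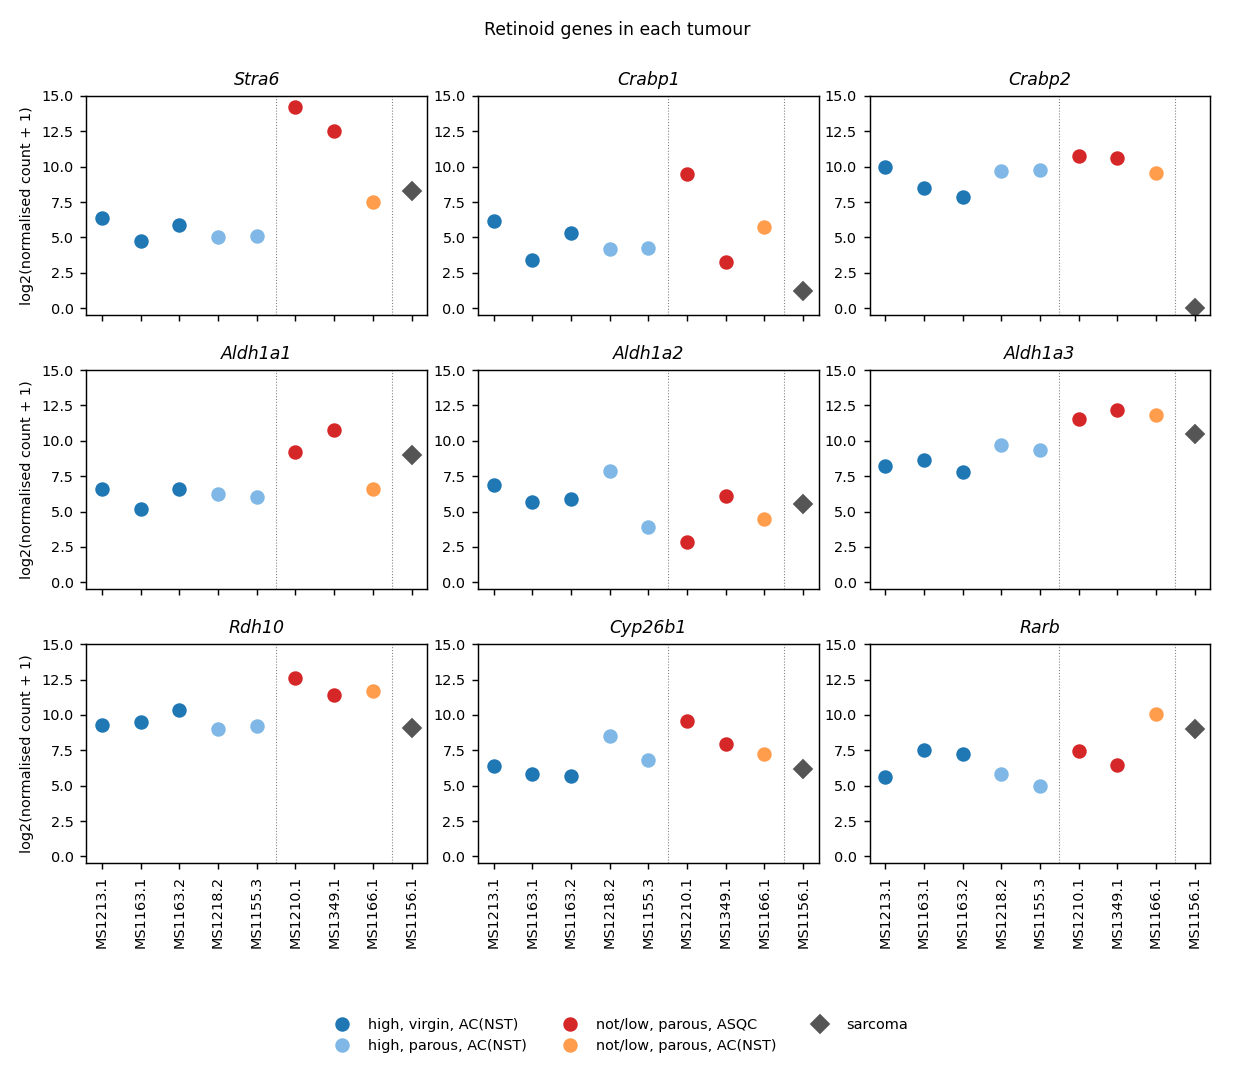
Level of each of the 9 genes in every tumour, as log2(normalised count + 1), with tumours on the horizontal axis, colours for amplification, parity and histotype, and dotted lines between high-amplified, not/low-amplified and sarcoma (the sarcoma on factors over all 9 tumours). Aldh1a3 and Rdh10 were high in all 3 not/low-amplified epithelial tumours, Stra6 and Aldh1a1 in the 2 ASQC tumours, and Rarb in MS1166.1.

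**Figure D2:**
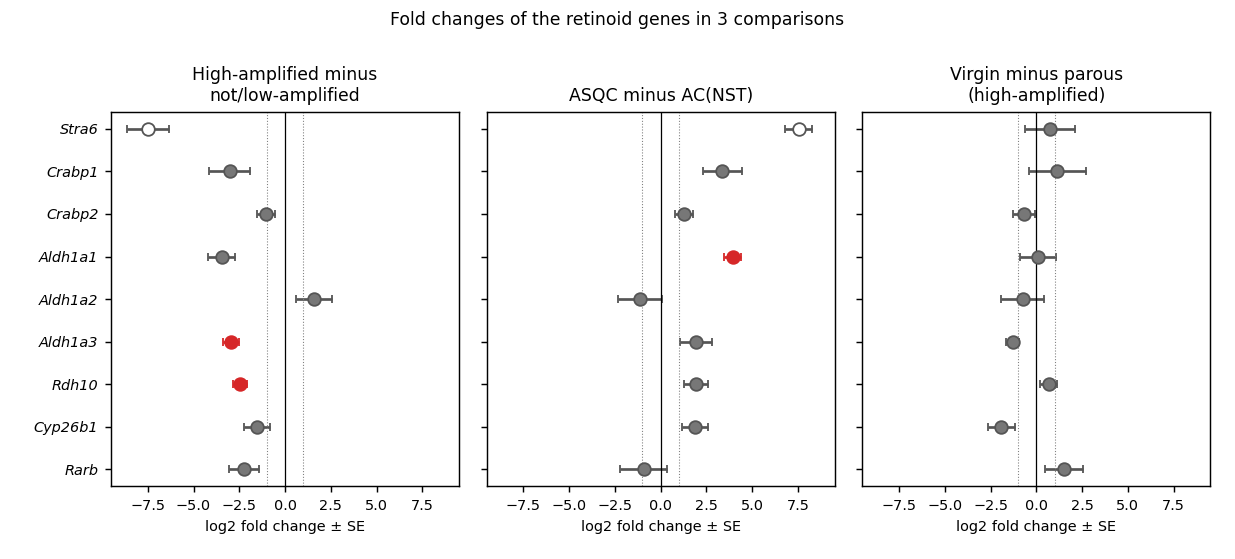
Log2 fold change with its standard error for the 9 genes by amplification, histotype and parity within high-amplified tumours, from edgeR. Red points passed the test (Aldh1a3 and Rdh10 by amplification, Aldh1a1 by histotype), grey points did not, and open points mark Stra6 where it was chosen on the contrast and not tested; dotted lines stand at a log2 fold change of 1 in each direction.

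Stra6, the retinol uptake receptor (chromosome 9, 58063788 to 58153996, plus strand, GENCODE M21 on GRCm38), had 19029 normalised counts in the ASQC tumour MS1210.1 and 5832 in the ASQC tumour MS1349.1. In the not/low-amplified AC(NST) tumour MS1166.1 it had 177. The high-amplified tumours had 80.9 in MS1213.1, 57.2 in MS1163.2, 26.2 in MS1163.1, 33.5 in MS1155.3 and 31.5 in MS1218.2. The lower ASQC tumour was thus 32.9-fold above the highest AC(NST) tumour, and MS1166.1 was 2.19-fold above the highest high-amplified tumour, so neither grouping overlapped. By amplification the log2 fold change was -7.50 (SE 1.14), and with histotype as a covariate, which sets the high-amplified tumours against MS1166.1 alone, it was -1.90. Keratinocyte markers moved with it: the summed level of 10 such genes was 36998 in MS1210.1 and 21013 in MS1349.1 against 292 to 1135 in the 6 AC(NST) tumours, with Lor at 0 in every high-amplified tumour and 5 of the 10 past the filter on low counts. Their part in the Stra6 values was not tested.

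Rdh10, whose enzyme oxidises retinol to retinal and sets the supply for retinoic acid synthesis (chromosome 1, 16105774 to 16133734, plus strand), was 5.46-fold lower in high-amplified tumours. Its normalised counts were 3357 in MS1166.1, 2745 in MS1349.1 and 6189 in MS1210.1. In the high-amplified tumours they were 618 in MS1213.1, 1297 in MS1163.2, 720 in MS1163.1, 582 in MS1155.3 and 505 in MS1218.2. The means were 4097 ± 1837 (SD, n = 3) and 744 ± 319 (SD, n = 5), the groups did not overlap, and the lowest not/low-amplified tumour stood 2.12-fold above the highest high-amplified one. In log2 terms the change was -2.45 (SE 0.38, edgeR adjusted p = 0.0287). Leaving out MS1213.1, MS1163.1, MS1155.3, MS1210.1 or MS1349.1 moved the adjusted p to between 0.0509 and 0.0832, with the log2 fold change between -2.05 and -2.73 over all tumours left out in turn.

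Aldh1a3, which encodes a retinal dehydrogenase that makes retinoic acid (chromosome 7, 66390890 to 66427517, minus strand), was 7.75-fold lower in high-amplified tumours. It had 3614 normalised counts in MS1166.1, 4660 in MS1349.1 and 2913 in MS1210.1. The high-amplified tumours had 293 in MS1213.1, 222 in MS1163.2, 390 in MS1163.1, 636 in MS1155.3 and 833 in MS1218.2. The means were 3729 ± 879 (SD, n = 3) and 475 ± 254 (SD, n = 5), again without overlap, and the not/low-amplified AC(NST) tumour lay between the ASQC tumours. On the log2 scale the change was -2.95 (SE 0.43, edgeR adjusted p = 0.0283). The adjusted p lay between 0.0538 and 0.0704 without MS1213.1, MS1163.1, MS1163.2, MS1155.3, MS1210.1 or MS1349.1, and was 0.0550 with the tumours of mouse MS1163 averaged. Aldh1a3 and Rdh10 were the 2 of the 8 genes with every not/low-amplified tumour above every high-amplified one, which held for 8.04% of all genes tested; the opposite order, found in 7.55% of all genes, was seen in none of the 8.

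Luminal markers ran the same way as these enzyme genes. Their summed level was 87573 to 147510 in the not/low-amplified epithelial tumours and 39298 to 57999 in the high-amplified tumours. All 8 had a negative log2 fold change, between -3.38 and -0.50 with a median of -0.93. Of them, 4 did not overlap between groups, an order that held for 8.04% of all genes tested. EdgeR called 0 of 8, with 4 at an unadjusted p under 0.05, a level that 3199 of all 14007 genes tested reached by amplification. DESeq2 called 3, where it called 4.54% of 15192 genes in that direction. The summed level of basal markers was 13056 to 56727 in the not/low-amplified and 1590 to 14079 in the high-amplified tumours, with a small overlap. Of the 7 basal markers, 4 had a negative log2 fold change, with a median of -1.87, and edgeR called 0 (2 at an unadjusted p under 0.05). Fibroblast markers ran the other way, all 10 with a positive log2 fold change and a median of 1.10, and their sums overlapped at 43515 to 365928 in the high-amplified and 28685 to 99984 in the not/low-amplified tumours. Of these 10, 3 had every high-amplified tumour above every not/low-amplified one, an order that held for 7.55% of all genes tested. EdgeR called 0 of the 10 (4 at an unadjusted p under 0.05). DESeq2 called 2 higher in high-amplified tumours. Of all genes it called 10.5% in either direction, 4.54% being higher in not/low-amplified tumours. The part of these markers in the Aldh1a3 and Rdh10 values was not tested.

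Aldh1a1, a second retinal dehydrogenase and a widely used stem cell marker in breast (chromosome 19, 20492715 to 20643465, plus strand), differed by histotype: it was 15.2-fold higher in ASQC tumours. It had 590 normalised counts in MS1210.1 and 1713 in MS1349.1. The 6 AC(NST) tumours held 34.6 to 95.3 with a median of 84.1, MS1166.1 among them at 94.0, so both ASQC tumours stood above every AC(NST) tumour, an order that held for 5.30% of all genes tested. EdgeR gave a log2 fold change of 3.93 (SE 0.45, edgeR adjusted p = 0.0154). The adjusted p was 0.0590 without MS1218.2 and 0.173 without MS1349.1, where the log2 fold change was 2.96. By amplification the log2 fold change was -3.46 (SE 0.73) with an edgeR adjusted p of 0.0579. It was -3.47 (adjusted p = 0.0417) without MS1218.2, -3.99 (adjusted p = 0.0158) without MS1166.1 and -2.22 (adjusted p = 0.137) without MS1349.1. The keratinocyte markers were high in the same ASQC tumours, and their part in the Aldh1a1 values was not tested.

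By the quantitative PCR calls, MS1166.1 is the single epithelial tumour in which amplification and histotype part, and 1 tumour cannot show which of them a gene goes with. For Aldh1a3 it held 4.34-fold, and for Rdh10 2.59-fold, the level of the highest high-amplified tumour. In fits with both terms MS1166.1 stands alone in its cell and is assumed to vary like the other tumours, so their values describe that tumour. The amplification terms were -2.88 for Aldh1a3, -2.13 for Rdh10, -3.51 for Rarb and -0.33 for Aldh1a1 on the log2 scale. The histotype terms were 0.11 for Aldh1a3, 0.45 for Rdh10, 3.66 for Aldh1a1 and, with the opposite sign, -2.99 for Rarb. EdgeR called 0 of the 8 genes in these fits, where it called 1.11% of all genes by amplification and 0% by histotype.

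Aldh1a2, the third retinal dehydrogenase and the main one of the early embryo (chromosome 9, 71215789 to 71296243, plus strand), was the exception in sign. Its normalised counts were 114 in MS1213.1, 57.2 in MS1163.2, 49.3 in MS1163.1, 14.2 in MS1155.3 and 232 in MS1218.2, against 21.4 in MS1166.1, 67.9 in MS1349.1 and 6.33 in MS1210.1. The groups overlapped, and the highest value was in MS1218.2, the tumour with the most stromal marker counts. The log2 fold change by amplification was 1.56 (SE 0.98, adjusted p = 0.366).

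Crabp2, which carries retinoic acid towards its nuclear receptors (chromosome 3, 87948666 to 87953376, plus strand), was present in every epithelial tumour. The ASQC tumours had 1722 in MS1210.1 and 1568 in MS1349.1, both above the 6 AC(NST) tumours, which ran from 236 in MS1163.2 to 992 in MS1213.1 with MS1166.1 at 752. Neither the log2 fold change by histotype, 1.29 (SE 0.49, adjusted p = 0.496), nor that by amplification, -1.02 (SE 0.49, adjusted p = 0.252), passed the test. Crabp1, its paralogue (chromosome 9, 54764748 to 54773110, plus strand), had 699 normalised counts in MS1210.1 but 8.77 in the other ASQC tumour MS1349.1. It had 51.1 in MS1166.1 and 9.44 to 70.3 in the high-amplified tumours, a span that takes in MS1166.1, while MS1349.1 lay just below it. The log2 fold change by amplification was -3.02 (SE 1.13, adjusted p = 0.157) and rested on MS1210.1, without which it was 0.03.

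Cyp26b1, an enzyme that breaks down retinoic acid (chromosome 6, 84571414 to 84593908, minus strand), had 153 normalised counts in MS1166.1, 246 in MS1349.1 and 752 in MS1210.1. The high-amplified tumours had 80.9 in MS1213.1, 49.7 in MS1163.2, 56.7 in MS1163.1, 112 in MS1155.3 and 355 in MS1218.2. MS1218.2 alone of the high-amplified tumours overlapped the not/low-amplified ones. The log2 fold change was -1.53 (SE 0.73, edgeR adjusted p = 0.246), without MS1218.2 it was -2.34 with an adjusted p of 0.0433, and without MS1210.1 it was -0.59 with an adjusted p of 0.705.

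Rarb, a retinoic acid receptor and itself a target of retinoic acid (chromosome 14, 16430839 to 16819156, minus strand), peaked in a different tumour. It had 1090 normalised counts in MS1166.1, which is 6.07-fold above the highest high-amplified tumour, against 177 in MS1210.1 and 89.1 in MS1349.1. The high-amplified tumours had 47.2 in MS1213.1, 150 in MS1163.2, 179 in MS1163.1, 30.9 in MS1155.3 and 56.5 in MS1218.2, so both ASQC tumours lay inside their span. The log2 fold change by amplification was -2.25 (SE 0.82, edgeR adjusted p = 0.150), and -0.52 without MS1166.1. Rarb exons share 1793 bases with Top2b on the opposite strand, and the strand setting of the counting is not given, so some Rarb counts could belong to Top2b. Top2b had 4208 in MS1166.1, inside the range of 1884 to 5385 over the epithelial tumours.

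Cyp26a1, the other gene with a DR5, was also highest in MS1166.1. It had 203 normalised counts there, 177 in MS1210.1 and 114 in MS1349.1. The high-amplified tumours had 27.0 in MS1213.1, 1.24 in MS1163.2, 2.10 in MS1163.1, 33.5 in MS1155.3 and 72.2 in MS1218.2. Unlike Rarb, it did not overlap between the amplification groups, but its log2 fold change of -2.56 (SE 0.98, edgeR adjusted p = 0.167) did not pass the test. While Rarb and Cyp26a1 were highest in MS1166.1, other listed response genes were lowest there among the epithelial tumours, such as Tgm2 (1329), Rarres2 (65.4) and Meis1 (20.2).

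Within the high-amplified tumours, virgin and parous mice were compared in a fit of 3 groups over the 8 epithelial tumours. EdgeR called 0 of the 9 genes and 0% of 14007 genes (2 and 907 at an unadjusted p under 0.05), and DESeq2 called 0 of the 9 genes and 0.13% of 15334 genes. Aldh1a3 had 222 to 390 normalised counts in the 3 tumours of virgin mice and 636 and 833 in the 2 of parous mice, with a log2 fold change of -1.29 (SE 0.35, edgeR adjusted p = 0.684). Cyp26b1 had 49.7 to 80.9 in virgin and 112 and 355 in parous mice (log2 fold change -1.91, SE 0.74, adjusted p = 0.684), and without MS1218.2 the log2 fold change was -0.85. All 8 macrophage markers also had a negative log2 fold change, with a median of -2.17. EdgeR called 0 of them (5 at an unadjusted p under 0.05). On factors over all 9 tumours, their summed level was 82570 in MS1218.2 but 9254 in the other parous tumour, MS1155.3. The latter lay below the 9455 to 15503 of the virgin tumours. All 8 endothelial markers were negative too, with a median of -1.02, while 7 of 8 adipocyte markers were positive. The part of these markers in the Cyp26b1 and Aldh1a3 values was not tested. Rdh10 ran the other way, 618 to 1297 in virgin and 505 and 582 in parous mice (0.68, SE 0.46, adjusted p = 0.687). Of the 9 genes, only Aldh1a3, Cyp26b1 and Rdh10 did not overlap by parity, which is why their values are given. With 3 tumours against 2, separation can arise from the order of the tumours alone. The share of all genes without overlap by parity was not determined, so this is a description. Stra6, which the rule did not choose on parity, overlapped, with a log2 fold change of 0.75 (SE 1.36, adjusted p = 0.857). Between the tumours of mouse MS1163 the 9 genes differed by 1.14-fold (Cyp26b1) to 4.08-fold (Crabp1).

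Per kilobase of exon, the genes of a family can be compared within a tumour. The sum of Aldh1a1, Aldh1a2 and Aldh1a3 was 89.0 to 283 normalised counts per kilobase in the high-amplified tumours and 722 to 1332 in the not/low-amplified epithelial tumours. Aldh1a3 held the largest share in every tumour, from 47.7% in MS1213.1 to 96.5% in MS1166.1. Aldh1a2 held 3.98% to 37.8% of the family in high-amplified and 0.371% to 2.17% in not/low-amplified epithelial tumours, without overlap. Its level per kilobase did overlap, at 6.03 to 97.4 and 2.68 to 28.8. Aldh1a3, the largest part of the sum, was lower in high-amplified tumours, so the Aldh1a2 share partly restates that difference. Among the CYP26 genes, Cyp26b1 held the largest share in the high-amplified tumours and in MS1210.1 (49.8% to 64.4%), and Cyp26a1 in MS1349.1 (53.8%) and MS1166.1 (77.8%). Of the retinoic acid receptors, Rarb was 0.863% to 7.58% of the family in the high-amplified tumours, 4.02% and 5.66% in the ASQC tumours and 31.3% in MS1166.1. These shares are descriptions and were not tested.

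**Figure D3:**
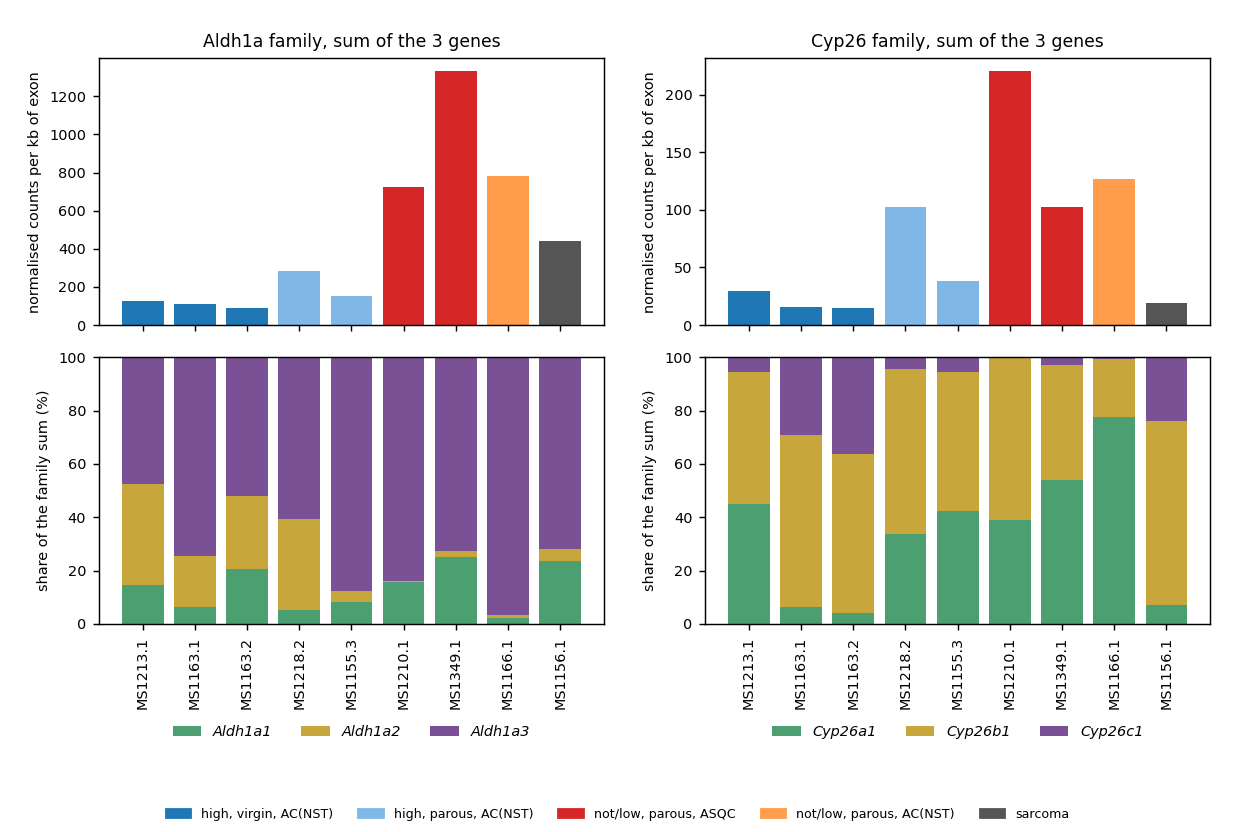
Upper panels show the summed level of the Aldh1a and the Cyp26 genes in each tumour, in normalised counts per kilobase of exon on an axis from 0, coloured by group; lower panels show each gene's share of that sum in percent. The Aldh1a sum was at least 722 in each not/low-amplified epithelial tumour and at most 283 in each high-amplified tumour. The share of Aldh1a2 was at most 2.17% in the former, and it depends on the level of Aldh1a3, the largest part of the sum.

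The sarcoma had a different set of these genes, given on size factors over all 9 tumours and with no replicate. Crabp2 had 0 counts where the epithelial tumours had 228 to 1652 normalised counts, which puts it at least 56.5-fold below the lowest of them if 3 counts are taken as the limit in this library. Crabp1 had 1 count. Stra6 had 308 normalised counts, above 6 of the 8 epithelial tumours, Aldh1a1 514, above the same number, and Rarb 512, above 7. Aldh1a3 had 1459, above every high-amplified and below every not/low-amplified epithelial tumour, while Rdh10 with 543, Aldh1a2 with 45.7 and Cyp26b1 with 71.3 lay inside the range of the high-amplified tumours. Chosen after its values were seen, the retinoid X receptor gene Rxrg had 2249 in the sarcoma and at most 32.1 in the epithelial tumours. Skeletal muscle markers were 27066 in the sarcoma against 15.5 to 3235 in the epithelial tumours, and fibroblast markers 590206; their part in the sarcoma's values was not tested.

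Outside the 9 genes, 60 other retinoid genes were listed and found, of which 45 passed the filter. EdgeR called 0 of the 45 by amplification, histotype or parity. At an unadjusted p under 0.05 there were 7 by amplification (5 higher and 2 lower in high-amplified tumours), 4 by histotype and 3 by parity. Of all 14007 genes tested, 3199, 1221 and 907 reached that level in the same order. DESeq2, run on all 60, called 3 by amplification, 2 by histotype and 0 by parity. Among the genes with an adjusted p it called 10.5%, 3.34% and 0.13%. Their median log2 fold change by amplification was -0.16, with 21 above and 24 below 0. The lists were for supply and storage (8 tested, median -0.35), retinol and retinal oxidoreductases (14, -0.28), breakdown and delivery (2, -1.36), receptors and cofactors (11, 0.44) and response genes (14, -0.18), the last sharing genes with the others. Rbp7, which encodes a cellular retinol-binding protein, had the largest value: 306 normalised counts in MS1213.1, 1562 in MS1163.2, 2585 in MS1163.1, 841 in MS1155.3 and 14733 in MS1218.2, against 84.5 in MS1166.1, 19.7 in MS1349.1 and 23.9 in MS1210.1. The groups did not overlap, an order that held for 7.55% of all genes tested. The log2 fold change was 6.60 (SE 1.51, edgeR adjusted p = 0.0675). DESeq2 called Rbp7 by amplification (adjusted p = 1.2e-08) and by histotype (log2 fold change -7.26, adjusted p = 3.5e-06). The Rbp7 peak in MS1218.2 fell in the tumour with the most endothelial and fibroblast marker counts, whose part was not tested. Cyp1b1, a cytochrome P450 that can oxidise retinol, had 1809 to 3539 in the not/low-amplified and 243 to 952 in the high-amplified tumours. Its log2 fold change was -2.05 (SE 0.48, edgeR adjusted p = 0.0712), and DESeq2 called it by amplification (adjusted p = 0.00304). Hoxa5, a homeobox gene that responds to retinoic acid, had 0 to 10.5 and 3.86 to 103, with a log2 fold change of 2.83 (SE 1.27, adjusted p = 0.221).

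**Figure D4:**
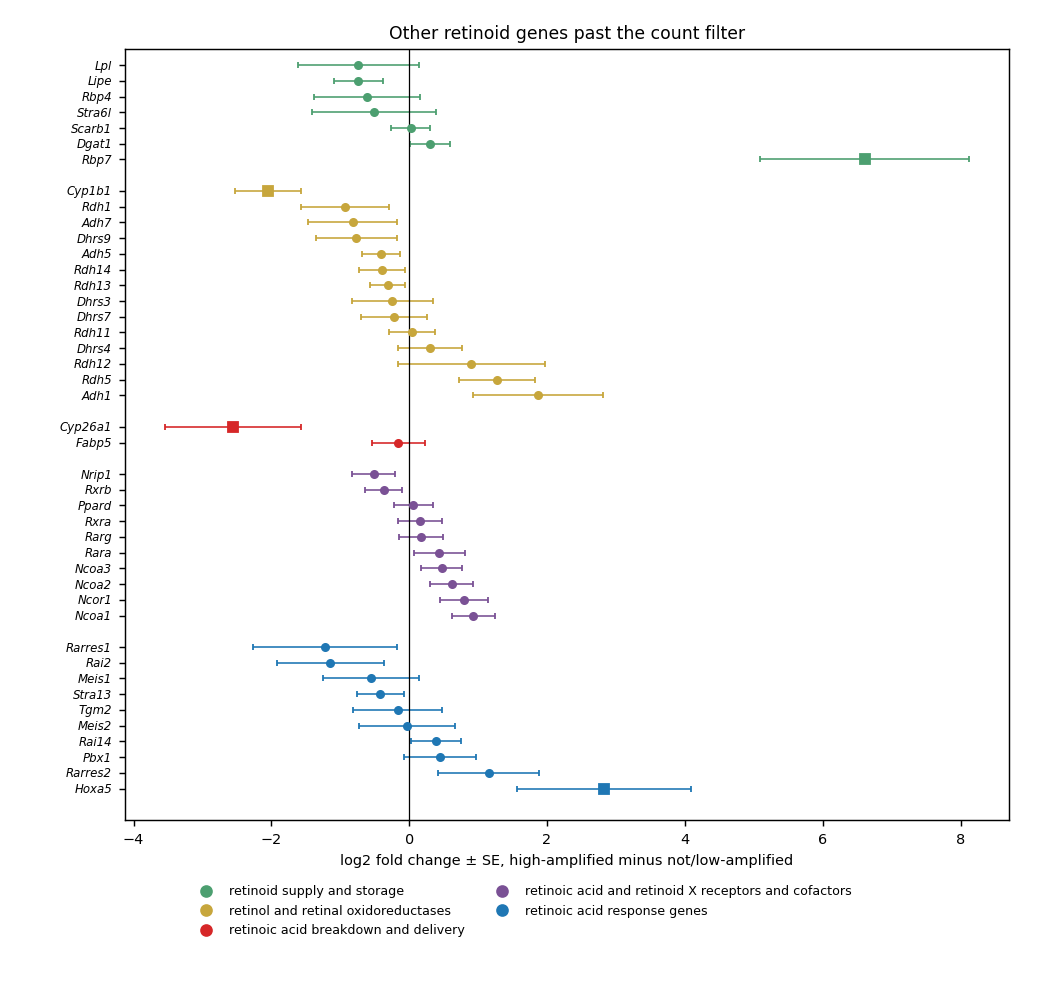
Log2 fold change with its standard error, high-amplified minus not/low-amplified, for the other retinoid genes that passed the count filter, grouped and coloured by list; squares mark the 4 genes with the largest change (Rbp7, Hoxa5, Cyp26a1 and Cyp1b1). None of the 45 was called, and 21 lay above and 24 below 0; 2 of the 45 are not drawn.

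The genes whose pattern was most like each of the 9 were found over the 8 epithelial tumours, by the standard deviation (SD) of the log2 ratio of the pair, a smaller SD meaning a closer pattern. For Stra6 these were Il1f9 (SD 0.998), Endou (1.07) and Axin2 (1.22), where Stra6 itself had an SD of 3.65. Il1f9 had 571 and 185 normalised counts in the ASQC tumours and 0 to 9.63 elsewhere, and Axin2, a target of WNT signalling, had 4341 and 5250 there, 328 in MS1166.1 and 43.0 to 158 in the high-amplified tumours. The closest gene to Aldh1a3 was Bst2 (SD 0.57), to Rdh10 Mal2 (0.51), to Aldh1a1 Igf2bp2 (0.37), to Crabp2 Ramp1 (0.19), to Cyp26b1 Galnt6 (0.42) and to Aldh1a2 Lyve1 (0.64), which marks lymphatic endothelium and some macrophages. For Rarb it was Hist3h2ba (0.41), with 319 in MS1166.1 and 11.1 to 80.8 elsewhere. Crabp1 had no close partner, Ahnak being the nearest at an SD of 0.97.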

How the data were processed

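RNA of 9 tumours was sequenced in pairs from strand-specific, rRNA-depleted libraries. Per the study's methods, reads were aligned to mouse build 38 with STAR at its unstranded defaults (at most 3 mismatches, unique positions) and counted with HTSeq-count; the strand setting and versions are not given in the sources used here. The deposited counts are unscaled reads per gene. The deposited signal values of the 8 epithelial tumours equal these counts divided by a DESeq2 median-of-ratios factor made by the authors. Counts were fitted with edgeR 4.0.16 (TMM, glmQLFit, glmQLFTest, Benjamini-Hochberg over all genes holding 10 or more counts in 3 or more tumours) under R 4.3.3, after tests on simulated data; genes were called at an adjusted p under 0.05 and a log2 fold change beyond 1. The standard error is the fold change over the root of F. P-values measure the spread between these tumours, and those of mouse MS1163 may not be independent. The genes, lists and named genes (the 9 genes, other retinoid genes called or with the 4 largest changes by amplification, and nearest patterns) were chosen with earlier results of these data known. Alternatives were DESeq2 1.42.0, median-of-ratios scaling, no filter, limma 3.58.1 on log2 (signal + 1), averaged tumours of mouse MS1163, each tumour left out and, added after seeing the data, fits with histotype or amplification as a covariate or the high-amplified tumours alone. GENCODE M21 placed 18420 of 18484 genes. Exon length is that of all exons of a gene merged. Figures used matplotlib 3.10.9. Of the other retinoid genes, 2 are not reported singly here.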

Additional observations from a re-analysis of the deposited data

Results flagged for a closer look

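The groups looked at numbered 25: 13 genes in the 5 high-amplified tumours and, leaving out Stra6, in the 6 AC(NST) tumours. Of these groups, 10 held a tumour whose normalised count stood far above the rest for the group's range. On the log2 scale 0 did. The rule is set to flag about 1 group in 20 by chance, but 10 of 25 cannot be weighed against that rate. The AC(NST) groups are the 5 high-amplified tumours with MS1166.1 added, so the groups share tumours. Some genes were also chosen for their change by amplification, which parts MS1166.1 from the other AC(NST) tumours. The flags are therefore a description. Within AC(NST), MS1166.1, which is the not/low-amplified tumour of that histotype, was the high one for Aldh1a3 (3614, next 833), Rdh10 (3357, next 1297), Rarb (1090, next 179), Cyp26a1 (203, next 72.2) and Cyp1b1 (3539, next 952). MS1218.2 was the high one for Cyp26b1 (355) both among high-amplified tumours (next 112) and within AC(NST) (next 153), and for Rbp7 (14733, next 2585) in both groups. MS1163.2 was the high one of the high-amplified tumours for Rdh10 (1297, next 720).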

How the results depend on the processing

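The counts of calls moved more than the fold changes. By amplification, 2 of the 8 genes and 129 of all genes were called; DESeq2 called 5 and 1591, no filter on low counts 229 of all genes, an average of the tumours of mouse MS1163 called 1 (Rdh10) and 31, and histotype as a covariate, chosen after seeing the data, called 0 of the 8 and 155 of all genes. Leaving out each tumour gave 0 to 4 of the 8 and 1 (without MS1210.1) to 1255 (without MS1218.2) of all genes. By histotype, 1 of the 8 and 33 of all genes were called; DESeq2 called 518 of all genes, no filter 171, limma on log2 values 14, the average of mouse MS1163 18, and amplification as a covariate, also chosen after seeing the data, 0 of the 8 and 0 of all genes. Leaving out each tumour gave 0 to 3 and 4 to 84. By parity, edgeR called 0 genes and DESeq2 20. The direction reversed, for a cause that was not tested, by histotype for Aldh1a2 with amplification as a covariate (0.84) and Rarb with limma (0.11), and by parity for Aldh1a1 (-0.039) and Aldh1a2 (0.22) with limma. With tumours left out, the log2 fold change of Crabp1 ran from -3.59 to 0.031 by amplification and from -1.98 to 4.35 by histotype (both turned without MS1210.1), that of Rarb by histotype from -1.58 to 0.52 (without MS1166.1), and by parity that of Aldh1a1 from -0.16 to 0.42 and that of Aldh1a2 from -1.66 to 2.36 (without MS1218.2). Median-of-ratios scaling in edgeR kept each direction and call of the 9 genes, as did the 5 high-amplified tumours alone for parity, and scaling by total counts kept each direction for the sarcoma. A single library per tumour, and 2 ASQC tumours, limit the precision.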

Other observations

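Like Rarb, the receptor genes Rara, Rarg and Rxra were not called by amplification in edgeR. DESeq2 called Rarb but none of these other receptor genes. Rara had 614 to 1831 normalised counts, Rarg 910 to 2022 and Rxra 1443 to 3670 over the 8 epithelial tumours, and their log2 fold changes by amplification were 0.44 (SE 0.37), 0.17 (SE 0.32) and 0.16 (SE 0.32), with adjusted p of 0.503, 0.769 and 0.787 in edgeR.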
